A study of Mus musculus with 2 samples.

Results

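The 44 genes that the feature lists name as collagen chains were described across the cell types of day 9 cultures of MM13 mouse embryonic stem cells, differentiated with retinoic acid and BMP4 (RA+BMP4) or with retinoic acid alone (RA). A gene was taken as a collagen chain where its symbol read Col, a number, a and a number, which chose 44 of 31053 genes with no use of their counts. Of these, 11 encode chains of fibrillar collagens, 9 chains of basement membrane collagens and 24 chains of other collagens. Both groups share the MM13 line, day 9 and retinoic acid, and differ by BMP4, a ligand that the dorsal midline of the embryo releases. Each group was 1 library of single cells counted with the 10x Genomics Chromium 3′ v3 chemistry, so the spread between replicates is unknown, the design allows no test, and every value describes these 2 libraries. Dead cells had been removed with a kit before capture.

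Collagens are triple helices of alpha chains, and each gene encodes a chain. Fibrillar collagens (types I, II, III, V, XI, XXIV and XXVII) pack into the striated fibrils of connective tissue and cartilage. Type IV collagens form the sheet-like network of basement membranes, the thin matrix under epithelia and around vessels and the neural tube, where type XVIII collagen is also bound. Other families decorate fibrils (the fibril-associated or FACIT collagens, such as XII and XIV), form beaded filaments around cells (type VI), form short-chain networks (type VIII) or span the cell membrane (XIII, XXIII and XXV). In the embryo, fibrillar collagens are known mostly from mesenchyme, and type IV collagens from endoderm, endothelium and neuroepithelium.

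Sequences upstream of the gene are shown for the neighbouring type IV genes, for a gene led by mesenchyme-like cells (Col3a1), for a broad gene that neuron-like cells also had (Col11a1) and for a gene higher in the RA+BMP4 library (Col23a1). Sequences are RefSeq's on the GRCm38.p6 build, 250 bases before the start of the gene and read along its strand, with the TATA motif TATAAA, the CCAAT box CCAAT and the GC box GGGCGG (each on either strand) in capitals. Of the 44 genes, 35 had an entry, and Col12a1 and Col14a1 had none. The Col4a1 and Col4a2 genes lie head to head on chromosome 8 and their annotated starts overlap by 22 bases, which are given on the plus strand at chr8:11312805-11312826 and hold a GC box. Col4a6 (chrX:141474077-141474326, minus strand) has a GC box, Col3a1 (chr1:45311288-45311537, plus strand) a TATA motif, Col11a1 (chr3:114030290-114030539, plus strand) GC boxes and a CCAAT box, and Col23a1 (chr11:51289670-51289919, plus strand) a GC box. In the same 250 bases, 13.16% of the 38 entries of collagen genes had TATAAA, 34.21% CCAAT and 57.89% GGGCGG, against 12.37%, 33.85% and 32.74% of all 32851 promoters in the table. A match is a description of the letters and not of a bound site.
Col4a1 and Col4a2, shared: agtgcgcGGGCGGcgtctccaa
Col4a6: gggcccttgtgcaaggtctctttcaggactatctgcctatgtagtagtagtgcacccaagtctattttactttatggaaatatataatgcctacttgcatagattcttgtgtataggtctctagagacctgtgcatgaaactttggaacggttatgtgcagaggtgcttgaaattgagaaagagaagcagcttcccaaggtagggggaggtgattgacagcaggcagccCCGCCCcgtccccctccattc
Col3a1: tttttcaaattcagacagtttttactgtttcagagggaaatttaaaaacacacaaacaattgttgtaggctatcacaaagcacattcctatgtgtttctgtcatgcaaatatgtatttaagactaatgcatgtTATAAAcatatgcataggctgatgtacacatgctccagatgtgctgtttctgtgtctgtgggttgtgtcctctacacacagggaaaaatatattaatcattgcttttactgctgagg
Col11a1: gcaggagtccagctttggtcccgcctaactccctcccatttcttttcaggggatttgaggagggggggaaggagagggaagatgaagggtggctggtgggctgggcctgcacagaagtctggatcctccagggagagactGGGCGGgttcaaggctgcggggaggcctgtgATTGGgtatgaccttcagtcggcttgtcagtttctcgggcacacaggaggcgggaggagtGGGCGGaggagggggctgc
Col23a1: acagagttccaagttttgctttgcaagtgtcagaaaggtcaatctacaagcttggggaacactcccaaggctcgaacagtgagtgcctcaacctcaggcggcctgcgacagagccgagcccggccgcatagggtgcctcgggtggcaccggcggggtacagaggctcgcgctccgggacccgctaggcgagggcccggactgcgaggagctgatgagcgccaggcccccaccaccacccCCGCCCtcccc

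The RA+BMP4 file held 115268932 unique molecular identifiers (UMIs) in 13121 barcodes and the RA file 122110565 in 9704, of which 8352 RA+BMP4 and 5900 RA cells were kept, with medians of 10465 and 14196 UMIs and of 4.22% and 6.06% mitochondrial UMIs per cell, whose part in the results was not tested. The libraries shared 43 barcode sequences, 21 of them among kept cells. Levels are given as CPM, the UMIs of a gene over all UMIs summed in the cells of a class, scaled to counts per 1e6. Each molecule is counted once from its 3′ end, so CPM is not divided by gene length, and no gene on the same strand lay within 500 bases of the 3′ end of any of the 25 collagens described in full. Intervals in square brackets are exact 95% intervals and cover counting error only. The levels are averages over cells, so fewer expressing cells and less RNA per cell cannot be told apart from them.

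Cells fell into 20 clusters formed without collagens, their partner genes or the markers of cell types, and classes were named from markers. Roof plate-like cells, which carry Lmx1a, Msx1, Wnt1 and Rspo3, numbered 2524 in RA+BMP4 and 489 in RA. Most of them lay in different clusters in the 2 libraries: cluster 0, which has Wnt1 and Rspo3 among its leading genes, held 1771 RA+BMP4 and 216 RA cells, while clusters 11 and 15, led by histone and mitosis genes and with no roof plate marker among their leading genes, held 753 and 273. Cp cells, a cluster led by Cp and Colec12, numbered 383 and 554. They had 202 CPM of Cp, but Ttr, the defining transcript of mature choroid plexus, was at 0.2 CPM. Cp cells carried roof plate markers as well, which summed to 1082 CPM in RA+BMP4 and 981 CPM in RA. The sums in roof plate-like cells were 1417 and 912 CPM. In Cp cells Lmx1a and Msx1 were at 57.5 and 504 CPM, against 60.7 and 573 CPM in cluster 0. Wnt1 and Rspo3 were further apart, at 76.9 and 201 CPM against 261 and 360 CPM. The other compared classes were progenitor-like (419 RA+BMP4 and 1020 RA cells), newborn neuron-like (357 and 444), neuron-like (3069 and 2436), mesenchyme-like (919 and 433), pluripotent-like (169 and 322) and endoderm-like cells (30 and 26). The mesenchyme-like cells had Pdgfra, Twist1 and Prrx1, and the endoderm-like cells Sox17, Gata6 and Cubn. Pdgfra and Gata6 were found in both. Pdgfra was at 173 CPM in endoderm-like cells and at 111 and 86.4 CPM in mesenchyme-like clusters 5 and 13. Gata6 was at 192 CPM in endoderm-like cells and at 69.6 and 62.7 CPM in those clusters. Neural crest glia-like cells (32 RA+BMP4 and 3 RA), endothelium-like cells (10 and 1) and surface epithelium-like cells (10 and 2) were too few in RA to compare. Peripheral sensory neuron-like cells (24 RA+BMP4 and 0 RA in each of their sub-clusters) were found in RA+BMP4 only.

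Mesenchyme-like cells held most fibrillar collagen, endoderm-like and endothelium-like cells had the highest level of basement membrane collagen, and roof plate-like and Cp cells had the highest level of the other collagens. Fibrillar collagens summed to 2337 CPM in RA+BMP4 and 3022 CPM in RA mesenchyme-like cells, against 334 and 360.3 CPM in roof plate-like cells and 581 and 596 CPM in Cp cells. In neuron-like cells they summed to 74.8 CPM in RA+BMP4 and 48.6 CPM in RA. Mesenchyme-like cells were 11.003% of RA+BMP4 cells and 7.34% of RA cells and held 69.3% and 69.8% of the fibrillar UMIs of their library. Endoderm-like cells were 0.359% of RA+BMP4 cells and 0.441% of RA cells, yet held 18.8% and 31.3% of the basement membrane UMIs, at 6505 and 9862 CPM. Endoderm-like cells had a median of 2.78 times the median UMIs of their library, and mesenchyme-like clusters 5 and 13 had 1.41 and 2.13 times. The shares of cells therefore understate the shares of all UMIs in these classes. Roof plate-like cells were 30.2% of RA+BMP4 and 8.29% of RA cells and held 58.7% and 26.1% of the UMIs of other collagens, at 1291 and 959.8 CPM. Cp cells, 4.59% and 9.39% of cells, held 11.7% and 33.4% of them, at 1404 and 1201 CPM.

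**Figure D1:**
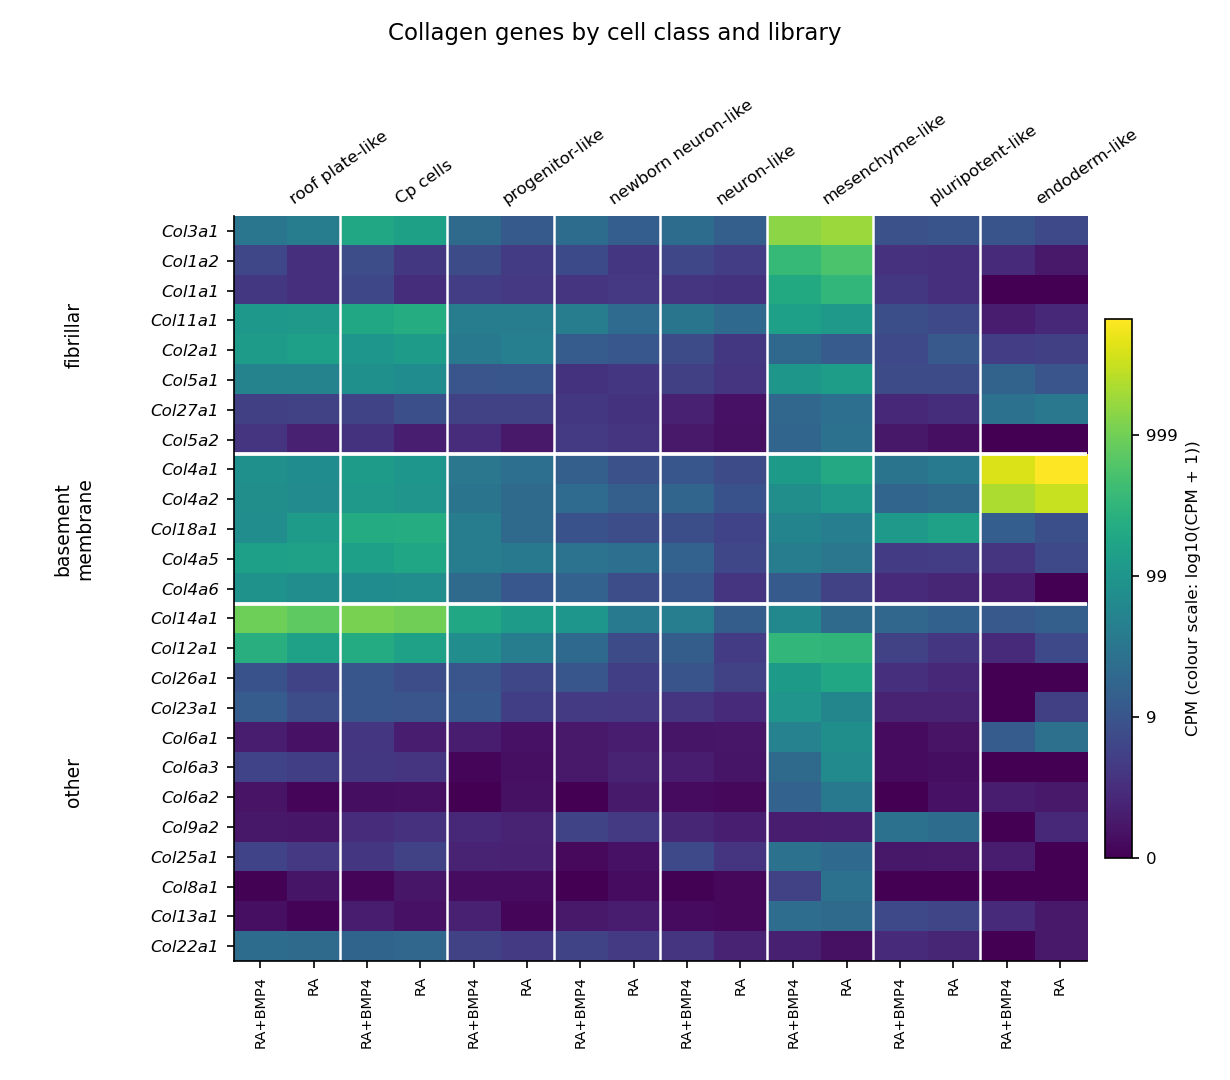
Levels of the 25 collagen genes that reached 20 CPM (rows, in 3 groups) in the 8 compared cell classes (columns, RA+BMP4 left of RA within each class); colour gives log10(CPM + 1) of UMIs summed over the cells of a class. Col3a1, Col1a2 and Col1a1 are brightest in mesenchyme-like cells, Col4a1 and Col4a2 in endoderm-like cells, and Col14a1 in roof plate-like and Cp cells, in both libraries.

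**Figure D2:**
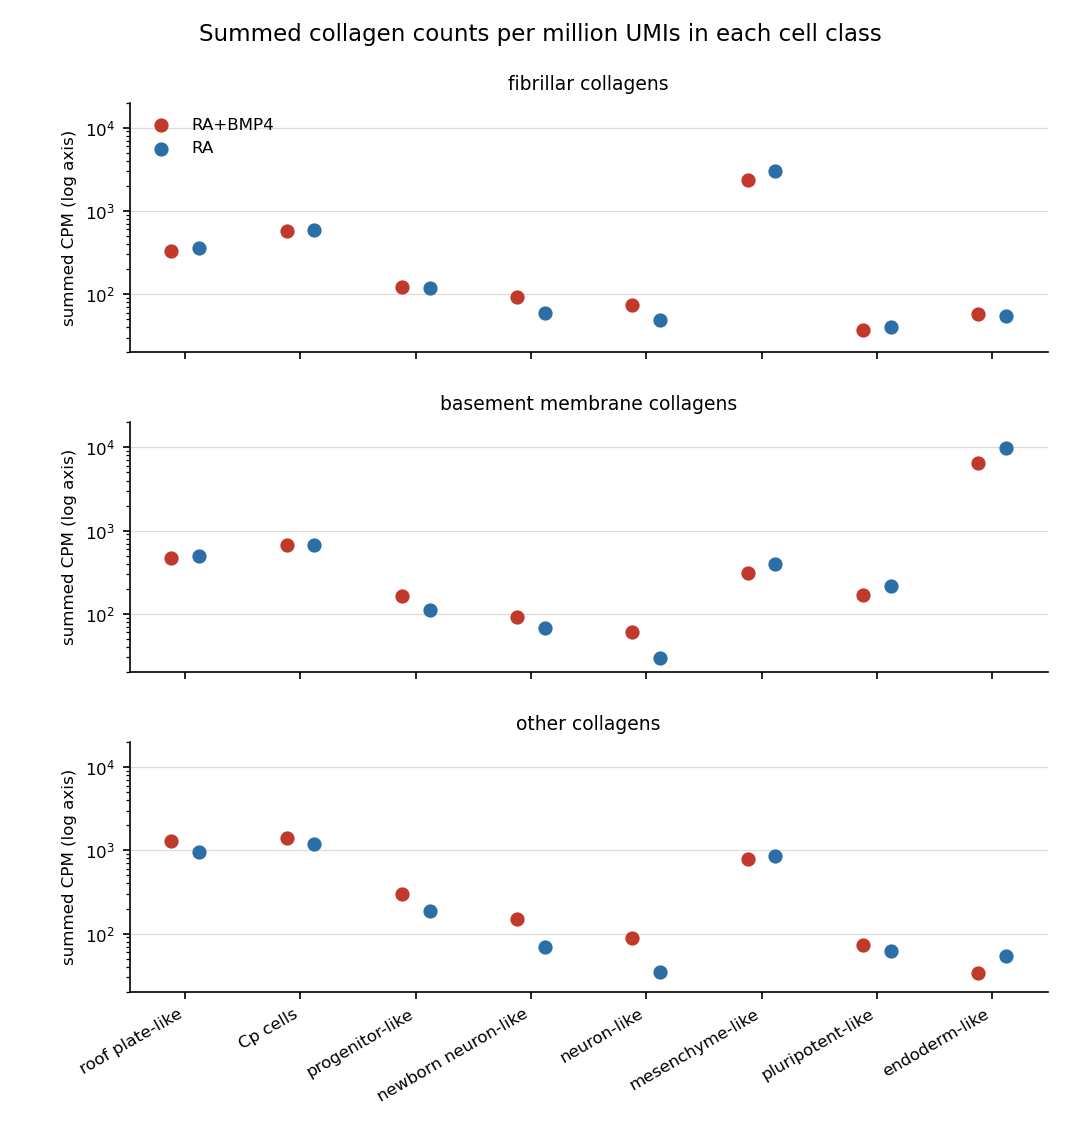
Summed CPM (log axis) of the 11 fibrillar, 9 basement membrane and 24 other collagen genes in each of the 8 compared classes, with 1 point per library (RA+BMP4 left, RA right). Fibrillar sums peak in mesenchyme-like cells, at 2337 CPM in RA+BMP4 and 3022 CPM in RA, and basement membrane sums in endoderm-like cells, at 6505 and 9862 CPM.

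Among fibrillar genes, Col3a1, Col1a2 and Col1a1 were concentrated in mesenchyme-like cells. Col3a1, the chain of type III collagen of vessels and loose connective tissue (chr1:45311538-45349706, plus strand), was at 1457 CPM in RA+BMP4 and 1799 CPM in RA mesenchyme-like cells, which held 88.6% and 87.3% of its UMIs. After each cell was thinned to 5000 UMIs, 97.7% [96.5 to 98.6] of RA+BMP4 and 96.0% [93.7 to 97.7] of RA mesenchyme-like cells had a Col3a1 UMI. Nearly every mesenchyme-like cell of either library thus had the transcript. Col1a2 and Col1a1, whose products join in type I collagen of bone, tendon and skin, were at 366 and 208 CPM in RA+BMP4 and at 559 and 341 CPM in RA mesenchyme-like cells. These cells held 92.5% and 95.1% of the Col1a2 UMIs of the RA+BMP4 and RA libraries. Thinned cells of this class had a Col1a2 UMI in 58.0% [54.8 to 61.3] of cases in RA+BMP4 and 75.1% [70.7 to 79.2] in RA. In roof plate-like, Cp, progenitor-like and neuron-like cells the highest level of either type I gene was 7.05 CPM, of Col1a2 in RA+BMP4 Cp cells.

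The 2 mesenchyme-like clusters differed in these genes. Cluster 5 (585 RA+BMP4 and 272 RA cells) had 1818 and 2102 CPM of Col3a1 and 468 and 688 CPM of Col1a2. Cluster 13 (334 and 161 cells) had 1040 and 1420 CPM of Col3a1 and 247 and 398 CPM of Col1a2. All 3 type I and III genes were therefore higher in cluster 5 than in cluster 13 in both libraries, Col1a1 included, at 259 and 457 CPM against 149 and 198 CPM.

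Col3a1 also stood out in Cp cells, at 186 CPM in RA+BMP4 and 147 CPM in RA, where Col1a2 was at 7.05 and 3.10 CPM. In roof plate-like cells Col3a1 was at 30.4 and 40.9 CPM. In thinned Cp cells 33.7% [28.9 to 38.7] of RA+BMP4 and 28.9% [25.1 to 32.8] of RA cells had a Col3a1 UMI, against 9.88% and 6.82% of neuron-like cells outside the Atoh1-led cluster, whose median depths before thinning were 9279 and 12330 UMIs. The shares before thinning were 52.2% and 48.9% in Cp cells, at median depths of 12025 and 16947 UMIs, and 17.7% and 14.7% in those neuron-like cells. Cp cells thus carried the type III gene almost without the type I genes, which the mesenchyme-like cells carried together.

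The genes of cartilage-type fibrils, Col2a1 (type II) and Col11a1 (type XI), had another distribution. Col2a1 was at 126 CPM in RA+BMP4 and 142 CPM in RA roof plate-like cells, at 102 and 129 CPM in Cp cells, and at only 18.2 and 11.6 CPM in mesenchyme-like cells. Roof plate-like and Cp cells together therefore held most Col2a1 UMIs, 72.1% and 10.7% in RA+BMP4 and 36.8% and 34.2% in RA. The summed markers of cartilage were at 133 CPM in RA+BMP4 and 118 CPM in RA roof plate-like cells, and 1 and 2 of the 8 were at 0. The same sum was at 174 and 179 CPM in progenitor-like cells (3 and 2 at 0) and 72.2 and 99.9 CPM in Cp cells (4 and 2 at 0). It was therefore not particular to roof plate-like cells. Col11a1 was broader, at 109.8 and 115.01 CPM in roof plate-like, 188 and 230.5 CPM in Cp and 143 and 117 CPM in mesenchyme-like cells. Col5a1, whose type V chain starts fibrils, was at 50.5 and 49.8 CPM in roof plate-like, 82.4 and 71.1 CPM in Cp and 106 and 139 CPM in mesenchyme-like cells. Its partner chain Col5a2 reached 20 CPM only in RA mesenchyme-like cells, at 16.4 CPM in RA+BMP4 and 26.9 CPM in RA. Col27a1, a minor fibrillar chain of cartilage, had its highest levels in endoderm-like cells, at 26.5 and 32.9 CPM, from 27 and 39 UMIs.

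Col4a1 and Col4a2, the chains of the network found in nearly all basement membranes, were far higher in endoderm-like cells than in any other compared class. Col4a1 (chr8:11198423-11312826, minus strand) was at 4239 CPM [4114 to 4368] in 30 RA+BMP4 and 6669 CPM [6522 to 6817] in 26 RA endoderm-like cells. Col4a2 (chr8:11312805-11449287, plus strand) was at 2248 and 3180 CPM. All of these cells had a Col4a1 UMI after thinning. In the 10 RA+BMP4 endothelium-like cells Col4a1 was at 3019 CPM and Col4a2 at 1645 CPM, and in the 32 RA+BMP4 neural crest glia-like cells they were at 483 and 213 CPM. Mesenchyme-like cells had 120.4 and 201 CPM of Col4a1, roof plate-like cells 80.8 and 71.1 CPM, and Cp cells 123 and 99.9 CPM in RA+BMP4 and RA.

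The share of Col4a1 among the UMIs of the pair differed between classes more than between libraries. Capture may differ between the genes, so the share is read only between classes. It was 65.3% [64.2 to 66.5] in RA+BMP4 and 67.7% [66.9 to 68.6] in RA endoderm-like cells, and 60.7% and 63.6% in mesenchyme-like cells. In roof plate-like cells it was 51.4% [49.9 to 52.8] and 50.7% [48.2 to 53.2], and in Cp cells 51.8% and 50.2%. In neuron-like cells it was 36.3% [32.9 to 39.7] and 43.3% [38.7 to 47.9], below all non-neuronal classes compared. The intervals of the endoderm-like, roof plate-like and neuron-like classes did not overlap within either library.

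**Figure D3:**
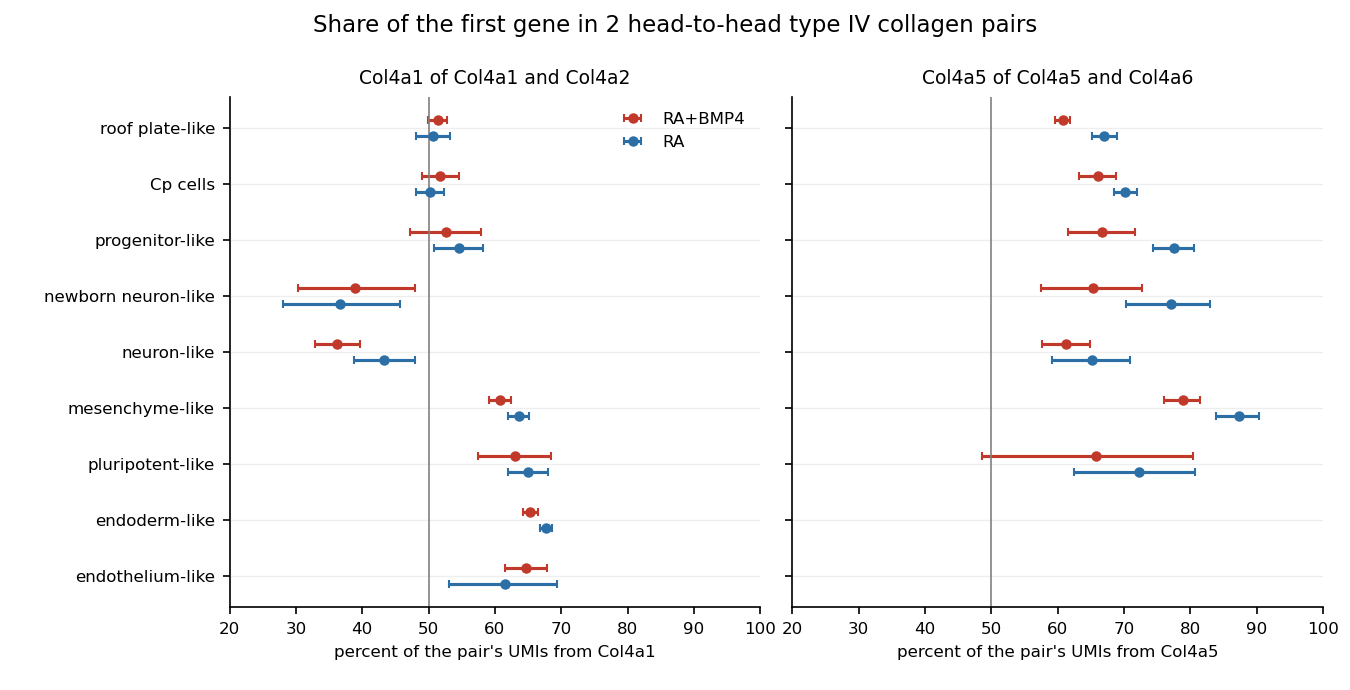
Percent of the UMIs of Col4a1 and Col4a2 that came from Col4a1 (left) and of Col4a5 and Col4a6 that came from Col4a5 (right), by class, in RA+BMP4 (upper point of each row) and RA (lower point), with exact 95% binomial intervals; classes with under 30 UMIs of a pair have no point. Col4a1 gives 65.3% and 67.7% of its pair in endoderm-like cells and 36.3% and 43.3% in neuron-like cells.

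Col4a5 and Col4a6, type IV chains of more restricted basement membranes, followed roof plate-like and Cp cells. Col4a5 (chrX:141475385-141689234, plus strand) was at 143 CPM in RA+BMP4 and 152 CPM in RA roof plate-like cells, at 141 and 175 CPM in Cp cells, at 41.4 and 32.1 CPM in mesenchyme-like cells and at 2.95 and 5.90 CPM in endoderm-like cells. Col4a6 (chrX:141165403-141474076, minus strand) was at 92.5 and 74.8 CPM in roof plate-like, 72.6 and 74.3 CPM in Cp and 11.1 and 4.66 CPM in mesenchyme-like cells. Endoderm-like cells, with the most Col4a1, thus had almost none of this pair. Col4a5 gave 60.7% [59.6 to 61.9] of the pair in RA+BMP4 and 67.0% [65.2 to 68.9] in RA roof plate-like cells, and 66.8% [61.6 to 71.7] and 77.6% [74.4 to 80.6] in progenitor-like cells. The share of Col4a5 was lower in RA+BMP4 than in RA in each of the 7 compared classes with values, though in neuron-like cells without the Atoh1-led cluster it was 66.9% and 65.2%. The intervals of the libraries did not overlap in roof plate-like, progenitor-like and mesenchyme-like cells. The chains Col4a3 and Col4a4, which with the Col4a5 chain form the network of the kidney filter, stayed low. Col4a3 had 6 and 15 UMIs in the whole libraries, and Col4a4 had its highest level in newborn neuron-like cells, at 7.24 and 6.97 CPM.

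Col18a1, whose product is a proteoglycan of basement membranes and the source of endostatin, was at 223 CPM in RA+BMP4 and 229 CPM in RA Cp cells and at 117 and 155 CPM in pluripotent-like cells. Pluripotent-like cells held 13.5% and 35.5% of its UMIs. In the 10 RA+BMP4 endothelium-like cells it was at 512 CPM. In RA+BMP4 neural crest glia-like cells it was at 278 CPM. Col15a1, its relative in vessels and muscle, passed 20 CPM in the endothelium-like cells alone, at 125 CPM from 24 UMIs in RA+BMP4 and 168 CPM from 7 UMIs in a single RA cell, and in no class of 20 or more cells.

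Col14a1, a FACIT of fibril surfaces (chr15:55307750-55520803, plus strand), had more UMIs than any other collagen in roof plate-like and Cp cells. It was at 965 CPM in RA+BMP4 and 754 CPM in RA roof plate-like cells and at 1115 and 982 CPM in Cp cells. Progenitor-like cells followed, at 187 and 128 CPM, and mesenchyme-like cells had 59.3 and 20.1 CPM. After thinning, 96.4% [95.6 to 97.1] of RA+BMP4 and 94.03% [91.5 to 96.0] of RA roof plate-like cells had a Col14a1 UMI, against 11.3% and 3.75% of neuron-like cells outside the Atoh1-led cluster; before thinning the shares were 99.6% and 99.8% in roof plate-like and 19.47% and 9.53% in those neuron-like cells. Roof plate-like and Cp cells held 73.8% and 15.6% of its UMIs in RA+BMP4, and 36.6% and 48.8% in RA.

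Col12a1, the FACIT of type XII collagen (chr9:79598991-79718831, minus strand), was shared between mesenchyme-like and dorsal midline classes. It was at 341 CPM in RA+BMP4 and 321 CPM in RA mesenchyme-like cells, 261 and 152 CPM in roof plate-like cells, and 221 and 151 CPM in Cp cells. Col22a1, a FACIT known from muscle and tendon junctions, was at 21.7 and 20.2 CPM in roof plate-like and 16.1 and 17.1 CPM in Cp cells and 1.14 and 0.499 CPM in mesenchyme-like cells. Col9a2, a chain of the type IX FACIT of cartilage, was seen mainly in pluripotent-like cells, at 26.7 and 21.5 CPM, with 5.10 and 3.48 CPM in newborn neuron-like cells, the next highest of the compared classes.

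The other genes at 20 CPM or more, of the type VI, type VIII, transmembrane and type XXVI families, had their highest levels among the compared classes in mesenchyme-like cells, while the low Col6a5 gene had most of its UMIs in pluripotent-like cells in both libraries, 89.4% of them in RA+BMP4. The type VI genes Col6a1, Col6a3 and Col6a2, whose chains assemble into beaded filaments, were at 47.8, 19.8 and 14.9 CPM in RA+BMP4 and 78.4, 65.0 and 33.9 CPM in RA mesenchyme-like cells. The class held 87.97% and 90.6% of Col6a1 UMIs. Col26a1, a secreted collagen first described in testis and ovary, was at 122 and 190 CPM there. The transmembrane collagens Col23a1, Col25a1 and Col13a1 were at 99.1, 26.6 and 22.1 CPM in RA+BMP4 and 55.7, 19.2 and 19.8 CPM in RA mesenchyme-like cells. Col25a1 is known for the growth of motor axons into muscle and Col13a1 for the neuromuscular junction. The short-chain collagen Col8a1, known from vessels and the cornea, was at 4.44 CPM in RA+BMP4 and 25.3 CPM in RA mesenchyme-like cells.

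Of the 44 genes, 19 stayed under 20 CPM in every class of at least 20 cells in a library, with 14.1 CPM of Col16a1 in RA+BMP4 mesenchyme-like cells as the highest of them. No member was without a UMI. Col4a3, Col6a4 and Col10a1, a marker of hypertrophic cartilage, were under 1 CPM in all of these classes. Col17a1, of epithelial anchoring, reached 1.13 CPM, in RA+BMP4 peripheral sensory neuron-like cells.

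Of the compared classes, neuron-like cells had the lowest summed collagen, 223 CPM in RA+BMP4 and 113 CPM in RA. Free RNA from lysed cells gives UMIs in every droplet, so the level in neuron-like cells outside the Atoh1-led cluster was set against that of the whole library. For Col3a1 the level was 7.95% of the library's in RA+BMP4 and 5.92% in RA, for Col14a1 6.47% and 4.21%, and for Col1a2 8.58% and 6.03%. Col3a1 and Col1a2 are led by mesenchyme-like cells and Col14a1 by roof plate-like and Cp cells, and each came to a low share. Col11a1 stood at 34.2% and 30.1%, Col4a2 at 20.1% and 10.6%, Col26a1 at 33.0% and 18.7%, and Col25a1 at 85.8% and 72.5% of the library's level, above the share of the genes just named. Col25a1 was uneven among neuron-like clusters: it was at 14.7 CPM in RA+BMP4 and 15.5 CPM in RA cells of cluster 2, which has Barhl1 and Barhl2 among its leading genes (980 and 25 cells), and at 0.9 and 0.7 CPM in cluster 1, with Lmx1b and Tlx3 (125 and 989 cells).

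Between the whole libraries, 2 of the 15 collagens with at least 20 CPM in a library were at least 2-fold higher in RA+BMP4 (background over all 7152 genes that passed the same minimum, 0.825%), and none was at least 2-fold lower (0.601%). The other 29 members were under 20 CPM in both. Col12a1 was at 153 CPM in RA+BMP4 and 74.9 CPM in RA, a log2 ratio of 1.03 [0.99 to 1.07], and Col23a1 at 22.0 and 9.47 CPM, a log2 ratio of 1.22 [1.11 to 1.33]. Col4a6, at 37.2 and 18.8 CPM, was just inside 2-fold at 0.98, and Col14a1, at 377 and 209 CPM, was at 0.85. The median log2 ratio of the 15 was 0.33, against 0.067 over all genes compared. Summed fibrillar collagens were at 552 CPM in RA+BMP4 and 477 CPM in RA, basement membrane collagens at 345 and 343 CPM, and other collagens at 634 and 373 CPM, log2 ratios of 0.21, 0.012 and 0.77.

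The libraries also differed in their mix of classes, so the RA+BMP4 value was computed again with the class shares of the RA library. The log2 ratio was then 0.47 in place of 1.03 for Col12a1, 0.76 in place of 1.22 for Col23a1, 0.42 in place of 0.98 for Col4a6 and 0.37 in place of 0.85 for Col14a1, and no collagen of those described was at least 2-fold higher. The 3 summed groups came to -0.23 for fibrillar, -0.18 for basement membrane and 0.29 for other collagens. The sign of the fibrillar sum therefore turned with the mix. The basement membrane sum turned too, but it was at only 0.012 as measured. It also fell below 0 with a stricter cell filter and with other scaling. Col9a2, at 3.10 CPM in RA+BMP4 and 4.78 CPM in RA, turned as well, to 0.30 in place of -0.63. On the same basis Col6a3 and Col6a2 came to -1.28 and -1.14 and Col8a1 to -2.38, further below 0 than as measured.

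**Figure D4:**
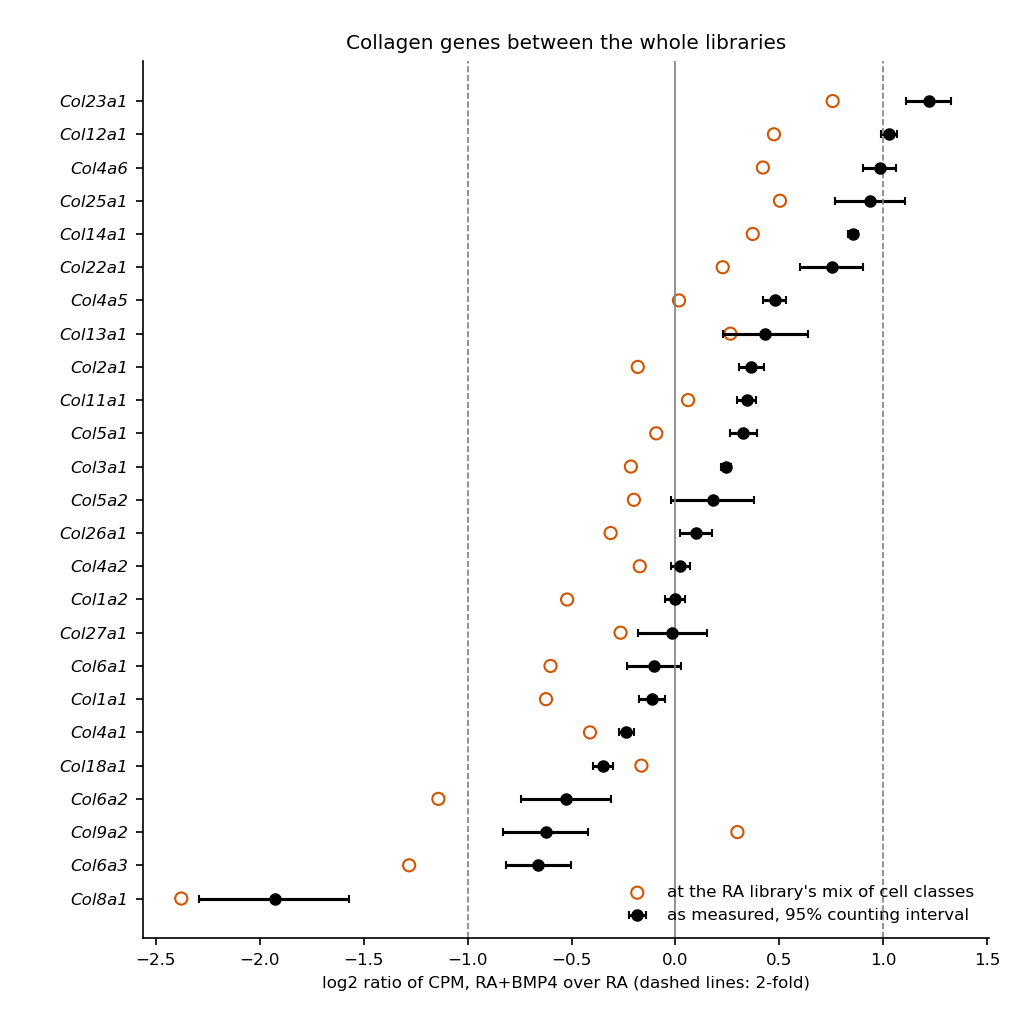
log2 ratio of CPM, RA+BMP4 over RA, of the 25 described collagens in the whole libraries (black, with 95% counting intervals) and with the RA+BMP4 classes weighted as in RA (open circles); dashed lines mark 2-fold. Col23a1 and Col12a1 lie above 2-fold as measured and at 0.76 and 0.47 at the RA mix, while Col6a2, Col6a3 and Col8a1 lie below -1 at the RA mix.

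Within roof plate-like cells none of 12 collagens compared was at least 2-fold higher (1.66% of 7068 genes) or lower (1.27%). Col12a1 was the nearest above, at 0.78 [0.71 to 0.86], and Col18a1 the nearest below, at -0.81 [-0.91 to -0.71]. Within cluster 0, Col12a1 was at 294 CPM in RA+BMP4 and 178 CPM in RA (log2 ratio 0.72), and in clusters 11 and 15 at 211 and 141 CPM (0.58). Col18a1 was at 57.1 and 66.2 CPM in cluster 0 (log2 ratio -0.21 [-0.43 to 0.0079]) and at 99.6 and 155 CPM in clusters 11 and 15 (-0.64 [-0.76 to -0.52]), and both ratios were nearer 0 than that of the whole class. Col4a1 differed in cluster 0, at 81.1 and 44.7 CPM in cluster 0 (0.86 [0.61 to 1.12]) and at 80.3 and 81.9 CPM in clusters 11 and 15 (-0.028). Roof plate markers summed to 1417 CPM in RA+BMP4 and 912 CPM in RA over the class, with 8 of 10 higher in RA+BMP4, and their part in these values was not tested.

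Within Cp cells none of 11 collagens was at least 2-fold higher (0.279% of 6805 genes) or lower (0.118%). Col12a1 had the highest ratio, 0.55 [0.44 to 0.66], and Col2a1 the lowest, -0.34 [-0.49 to -0.20]. The summed basement membrane collagens were at 677 CPM in RA+BMP4 and 680.1 CPM in RA, a log2 ratio of -0.0069 [-0.064 to 0.050]. In progenitor-like cells 1 of 10 collagens was at least 2-fold higher (1.28% of 6703 genes) and none lower (0.731%). This was Col4a6, at 20.03 and 9.84 CPM, with a log2 ratio of 1.03 [0.67 to 1.38] that includes values under 2-fold. It was inside 2-fold, at 0.69 to 0.96, with doublets kept, under either other scaling, at either other clustering resolution and with collagens among the clustering genes. Col18a1 was at 38.8 and 20.03 CPM there (0.96 [0.71 to 1.204]). All 10 collagens compared in progenitor-like cells other than Col2a1 had a ratio above 0, with a median of 0.52 against 0.026 over all genes compared. Roof plate markers summed to 182 and 92.01 CPM in the class and neural progenitor markers to 3593 and 7643 CPM, and their part in this was not tested.

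Among newborn neuron-like cells Col14a1 was the 1 of 5 collagens at least 2-fold higher (1.21% of 6534 genes), at 99.8 CPM in RA+BMP4 and 37.8 CPM in RA (1.40 [1.15 to 1.65]), and it was inside 2-fold, at 0.94, when each library was clustered alone. In neuron-like cells it was the 1 of 3 (1.63% of 6978 genes), at 42.1 and 12.5 CPM (1.75 [1.59 to 1.92]). None was at least 2-fold lower in either class (0.52% and 0.616%). The Atoh1-led cluster 16, with 347 RA+BMP4 and 97 RA cells, had 169 and 89.0 CPM of Col14a1, and without it the neuron-like ratio was 1.47 [1.26 to 1.68], at 24.4 and 8.80 CPM. The level of Col14a1 in the whole library was itself 377 CPM in RA+BMP4 and 209 CPM in RA, and roof plate markers summed to 106 CPM in RA+BMP4 and 39.4 CPM in RA newborn neuron-like cells and to 51.9 and 15.5 CPM in neuron-like cells, with 9 of 10 higher in RA+BMP4 in each class. Rspo2 alone of them was at 0, in the newborn neuron-like cells of both libraries. The part of free RNA or of roof plate cells in the neuronal values was not tested.

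Over the 8 classes together, 4 of 69 collagen comparisons were at least 2-fold higher in RA+BMP4 and 4 lower. The shares over all genes were 1.34% and 0.922%. Mesenchyme-like cells, the class with the most collagens compared, held 4 of these 8 calls. Here 3 of 21 collagens compared were at least 2-fold lower in RA+BMP4 (0.88% of 6589 genes), and 1 was at least 2-fold higher (0.85%). The lower ones were Col8a1, at 4.44 CPM in RA+BMP4 and 25.3 CPM in RA (-2.51 [-2.90 to -2.14]), Col6a3, at 19.8 and 65.0 CPM (-1.71 [-1.91 to -1.53]), and Col6a2, at 14.9 and 33.9 CPM (-1.18 [-1.42 to -0.95]). Col6a1 was at 47.8 and 78.4 CPM (-0.71). The low Col6a6 gene, at 1.74 and 8.40 CPM, and so not counted, had a ratio of -2.27. Col14a1 was the higher one, at 59.3 and 20.1 CPM (1.56 [1.35 to 1.77]).

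Both mesenchyme-like clusters gave these directions. In cluster 5 Col6a3 was at 25.1 CPM in RA+BMP4 and 84.8 CPM in RA and Col8a1 at 5.5 and 39.4 CPM. In cluster 13 Col6a3 was at 13.6 and 40.3 CPM and Col8a1 at 3.2 and 7.7 CPM. Col14a1 was at 67.0 and 28.3 CPM in cluster 5 and at 50.5 and 9.9 CPM in cluster 13. Type I, III and V genes were all lower in RA+BMP4, but inside 2-fold, with ratios from -0.72 for Col1a1 to -0.30 for Col3a1, while Col23a1 (0.83), Col25a1 (0.47), Col11a1 (0.29), Col4a5 (0.37) and Col18a1 (0.31) were higher. The median of the 21 was -0.47, against 0.039 over all genes compared. Summed mesenchyme markers were at 1362 CPM in RA+BMP4 and 1786 CPM in RA, with 4 of 19 higher in RA+BMP4 and none at 0, and roof plate markers at 187 and 78.5 CPM, with 10 of 10 higher in RA+BMP4. The part of either in these ratios was not tested.

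**Figure D5:**
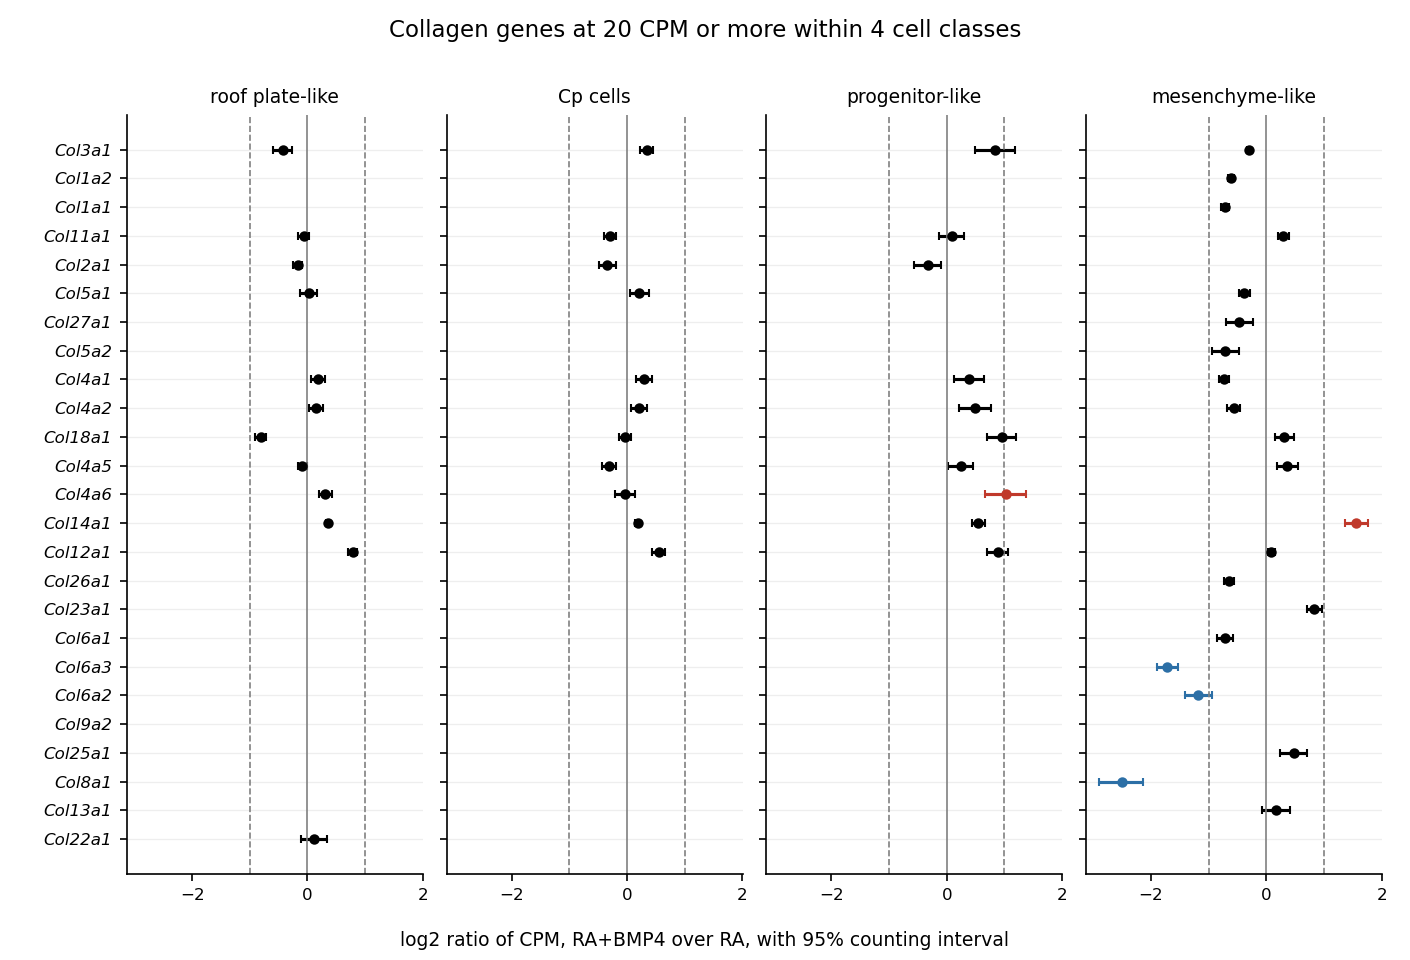
log2 ratio of CPM, RA+BMP4 over RA, of the collagens with at least 20 CPM in a library, within 4 cell classes, with exact 95% counting intervals; dashed lines mark 2-fold, red points are at least 2-fold higher and blue points at least 2-fold lower in RA+BMP4. Mesenchyme-like cells hold the 3 blue points (Col6a3, Col6a2 and Col8a1), and no point in roof plate-like or Cp cells lies past 2-fold.

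In pluripotent-like cells none of 3 collagens was at least 2-fold higher (0.416% of 6009 genes) or lower (0.183%). In endoderm-like cells Col6a1 was 1 of 4 at least 2-fold lower (2.95% of 6782 genes), on 12 UMIs in RA+BMP4 and 29 in RA, and none was at least 2-fold higher (3.24%). Its ratio was -1.05 and turned to 1.09 with the stricter cell filter. Col4a1 and Col4a2 were at -0.65 [-0.71 to -0.60] and -0.50 [-0.58 to -0.43]. With 30 and 26 cells, these values rest on few cells.

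The head-to-head pairs among the described genes were compared across clusters. This used the 20 clusters of at least 50 cells, the unnamed ones included. Of the sub-clusters of cluster 19, only the endoderm-like one was large enough. Over these, log2(CPM + 1) of Col4a1 and Col4a2 had a Pearson r of 0.97. That of Col4a5 and Col4a6, whose starts are 1308 bases apart, was 0.96. Col1a1 and Col1a2, on different chromosomes, had 0.98. Col3a1 and Col5a2, tail to tail and 24614 bases apart, had 0.83, and Col6a2 and Col6a1, on the same strand, 0.91. The median over all pairs of described collagens was 0.50. Col14a1 had an r of 0.97 with Col2a1 and 0.95 with Col4a5 but 0.24 with Col3a1. These values describe clusters of the same 2 libraries, which share depth and free RNA.

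The partners of collagens were read from 5 lists. Between the whole libraries, none of the 15 collagen-processing genes at 20 CPM or more, of 30 listed, was at least 2-fold higher or lower, nor any of 8 laminins and other basement membrane partners, 3 fibril partners, 3 collagen receptors and 3 degradation genes. Of all 7152 genes compared, 0.825% were at least 2-fold higher and 0.601% lower, and 0 of 32 partners is near these shares. Serpinh1, the chaperone of procollagen, was at 336 CPM in RA+BMP4 and 266 CPM in RA, and P4ha1, a subunit of the prolyl hydroxylase that stabilises the helix, at 141 and 88.5 CPM (0.67). In neuron-like cells 6 of 11 processing genes were at least 2-fold higher in RA+BMP4, against 1.63% of all genes. P4ha1 was at 89.4 and 36.0 CPM (1.31), Serpinh1 at 74.9 and 32.4 CPM (1.21), and Loxl2, which cross-links collagen, at 28.6 and 8.73 CPM (1.71). P4ha2, Plod2 and Sparc were the others. The processing list had a median log2 ratio of 1.15 there, against 0.047 over all genes compared. The clusters that make up the neuron-like class differed between the libraries, with 980 RA+BMP4 and 25 RA cells in cluster 2, 443 and 55 in cluster 12, and 125 and 989 in cluster 1. In the same cells roof plate markers summed to 51.9 CPM in RA+BMP4 and 15.5 CPM in RA, neural crest glia markers to 59.0 and 23.4 CPM (5 of 8 higher in RA+BMP4, Cdh19 at 0 in RA) and mesenchyme markers to 45.4 and 28.4 CPM (14 of 19 higher, with 2 and 3 at 0). The glia list holds Foxd3, which is also a leading gene of neuron-like cluster 6 (680 RA+BMP4 and 149 RA cells), so its sum is not particular to glia. The part of the clusters or of these markers in the ratios was not tested.

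Nid1, which links laminin to type IV collagen, was lower in RA+BMP4 in 3 classes, at 17.3 CPM in RA+BMP4 and 41.3 CPM in RA roof plate-like cells (-1.25), 43.6 and 91.2 CPM in mesenchyme-like cells (-1.06) and 23.6 and 303 CPM in endoderm-like cells (-3.68). In endoderm-like cells 5 of 10 basement membrane partners were at least 2-fold lower, Lama1, Lamb1 and Lamc1 among them, the chains of laminin-111. Lamb1 was at 776 and 2163 CPM (-1.48), Lamc1 at 568 and 1573 CPM (-1.47) and Lama1 at 691 and 1806 CPM (-1.39), while Col4a1 stayed within 2-fold. Sparc, which binds collagen outside the cell, was at 4142 and 10543 CPM in that class (-1.35). In mesenchyme-like cells Lox, which cross-links fibrils, was at 33.5 and 69.1 CPM (-1.04), lower like most fibrillar genes there, and it was the only processing gene of 20 past 2-fold. Mmp14, a membrane collagenase, and P3h4, of the prolyl 3-hydroxylase complex, were the partners at least 2-fold higher in roof plate-like cells, at 24.0 and 10.3 CPM (1.22) and at 37.4 and 16.8 CPM (1.15).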

How the data were processed

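The authors deposited unscaled UMI counts for each gene in each barcode, made with Cell Ranger 3.0.2 and CASAVA on the GRCm38 build, per the submitters' processing notes. Barcodes reached down to 602 UMIs in RA+BMP4 and 500 in RA. Which annotation release and cell-calling settings were used is not stated in the labels or files.

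Cells were kept with 1000 genes or more and no more than 10% of UMIs from mitochondrial genes, and Scrublet doublets (298 RA+BMP4, 138 RA) were removed. In scanpy 1.11.5, counts were scaled to 10000 per cell and logged, and 3000 variable genes, 30 components, 20 neighbours and Leiden resolution 1 (leidenalg 0.10.2) gave 20 clusters of both libraries together. A cluster took the name of the marker list with most genes among its 10 leading genes, where at least 3 markers were detected, and ties went to the list with the highest mean fold. Clusters 11 and 15 were named so with no leading marker. This way of scoring, and the split of the 162 mixed cells of cluster 19 into 6, came after the clusters had been looked at. Clusters 17 and 18, shallow and unnamed, were left out of classes.

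UMIs were summed per class and library. A gene was compared at 20 CPM or more in a library and called at 2-fold; under 3 UMIs were set to 3. Ratios have exact conditional binomial, levels exact Poisson and shares exact Clopper-Pearson intervals, all 95% and for counting error only. Genes named are members with at least 20 CPM in a class of at least 20 cells, and partners past the call rule or at 100 CPM or more, of which a few are given; Col15a1, Col16a1, Col6a6 and the lowest genes were named after their values were seen. The members and lists were chosen with earlier results of these data known. Coordinates are GENCODE vM21's on GRCm38, matched by gene ID for all 44 genes. The call rule and intervals were checked on simulated counts that held counting error only, as the intervals assume. That check cannot speak to the spread between cells or replicates. Alternatives covered the cell filter, doublets, scaling, cell weighting, clustering, CPM minimum, classes left out and thinning.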

Additional observations from a re-analysis of the deposited data

Results flagged for a closer look

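Col18a1, the basement membrane proteoglycan gene, differed in opposite directions in 2 cell classes, each by more than 1.5-fold with an interval that leaves out 0. In roof plate-like cells it was at 73.7 CPM in RA+BMP4 and 129 CPM in RA, a log2 ratio of -0.81 [-0.91 to -0.71]. In progenitor-like cells it was at 38.8 CPM in RA+BMP4 and 20.03 CPM in RA, a log2 ratio of 0.96 [0.71 to 1.204]. The difference between the classes was not tested, since each condition had 1 library. Within the roof plate-like class, Col18a1 was at 57.1 CPM in RA+BMP4 and 66.2 CPM in RA in cluster 0, a log2 ratio of -0.21 [-0.43 to 0.0079] that includes 0, and at 99.6 and 155 CPM in clusters 11 and 15, a log2 ratio of -0.64 [-0.76 to -0.52]. Within the progenitor-like class, Col18a1 was at 45.8 CPM in RA+BMP4 and 22.6 CPM in RA in cluster 8, and at 18.3 and 16.03 CPM in cluster 10.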

How the results depend on the processing

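No paired analysis was possible because each condition had 1 library and no test was made. Of 461 recomputed ratios of single genes, 441 kept their sign and 433 their side of 2-fold; of the 91 that recomputed a ratio past 2-fold, 75 stayed past it and 90 kept their sign. The 2 collagens higher in the whole RA+BMP4 library became 1 under TMM, under median-of-ratios and when pluripotent-like cells were left out, and with no CPM minimum 4 were lower, against 5.54% of all genes. Col12a1 was the gene lost, at 0.97, 0.95 and 0.87, and it was at 0.88 with the stricter filter, where Col14a1 (1.13) and Col4a6 (1.34) passed 2-fold. Without mesenchyme-like cells Col23a1 was at 0.90 and Col4a6 at 1.04, and with cells weighted equally Col14a1 was at 1.05 and Col4a6 at 1.18.

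The whole-library log2 ratios of the fibrillar, basement membrane and other sums were 0.15, -0.10 and 0.84 with the stricter cell filter, 0.15, -0.049 and 0.71 with TMM, 0.14, -0.062 and 0.69 by median-of-ratios, 0.33, 0.075 and 0.96 without mesenchyme-like cells, 0.059, -0.038 and 0.63 without pluripotent-like cells, 0.32, 0.28 and 0.97 with cells weighted equally, and -0.23, -0.18 and 0.29 at the RA class mix. Partner genes higher were 1 of 42 at 10 CPM (1.11% of all genes) and 5 of 76 with no minimum (5.11%), and 5 were lower with none (5.54%). Over the 8 classes, collagens higher were 11 of 88 comparisons at 10 CPM (1.83% of all genes) and 39 of 269 with no minimum (7.71%), and 17 were lower with none (3.52%).

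Within classes, the fibrillar ratio in mesenchyme-like cells was -0.41 with TMM and with median-of-ratios and -0.35 with equal weights. That of other collagens in roof plate-like cells was 0.55 with the stricter filter, 0.35 with TMM, 0.34 with median-of-ratios and with each library clustered alone, and 0.38 with equal weights; in Cp cells it was 0.36, 0.15 and 0.16 under the same filter and scalings, and 0.27 with equal weights. The basement membrane ratio in endoderm-like cells was -0.30 with the stricter filter, -0.67 with median-of-ratios, -0.70 with equal weights and -1.56 with cluster 19 not split. Col6a1 in endoderm-like cells turned to 1.09 with the stricter filter.

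With the stricter filter, mesenchyme-like cells held 72.2% of RA+BMP4 and 77.0% of RA fibrillar UMIs, against 66.7% and 67.0% with doublets kept; the RA+BMP4 share was 69.8% at the lower resolution and 69.7% with collagens among the clustering genes. Roof plate-like cells held 57.2% of RA+BMP4 and 28.9% of RA other-collagen UMIs with the stricter filter, 60.5% and 27.7% at the lower resolution, 59.5% and 26.6% at the higher, 61.4% and 27.9% with collagens in the clustering, 60.5% and 40.1% with libraries clustered alone, and 57.5% in RA+BMP4 with doublets kept. Endoderm-like cells held 20.7% of RA+BMP4 and 40.6% of RA basement membrane UMIs with the stricter filter, 18.0% and 30.6% with doublets kept, 23.6% and 32.3% with cluster 19 not split, and 19.8% in RA+BMP4 with collagens in the clustering. Clustered alone, RA+BMP4 gave no endoderm-like class.

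Unthinned, 99.6% of RA+BMP4 and 99.8% of RA roof plate-like cells had a Col14a1 UMI, and 87.9% and 82.9% had at least 2 after thinning. For Col3a1 in mesenchyme-like cells the unthinned shares were 99.8% and 99.1%, and 93.2% of RA+BMP4 cells had at least 2. The causes were not tested. The stricter filter kept 5895 RA+BMP4 and 1247 RA cells, and depth limits the genes under 20 CPM.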
